A study of Homo sapiens with 6 samples.

Results

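Splicing factor and hnRNP genes were followed in U87-MG cells, an established human glioblastoma cell line. They were taken by symbol: every gene of the deposited table named HNRNP, SRSF, SF3A, SF3B, SNRP, U2AF, PRPF or RBM followed by letters or digits, leaving out symbols that end in P and digits, which mark pseudogenes. The rule found 151 of the 61806 genes in the table. By name there were 26 HNRNP, 14 SRSF, 12 SF3A, SF3B and U2AF, 12 SNRP, 13 PRPF and 74 RBM genes. Of the 151, 106 had a mean level of at least 0.5 FPKM (counts scaled to the exonic size of the gene and to the total of the library) over the 6 libraries and were tested. A further 8 had counts below that level, and 37 had 0 counts in every library. The 28 Y-linked RBM genes are among the untested genes and are only counted here. The rule kept 24 symbols that end in P without digits, 22 RBM and 2 SRSF, a form that can also mark pseudogenes. They too are among the untested genes.

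Introns are removed from pre-mRNA by the spliceosome, which is built on each intron from small nuclear ribonucleoproteins (snRNPs). The SNRP genes encode proteins of these particles, SF3A and SF3B belong to the U2 particle at the branch point, and U2AF reads the 3′ splice site. PRPF proteins serve the U4/U6.U5 tri-snRNP and the later steps, SR proteins (SRSF) mostly favour exon inclusion, and hnRNP proteins coat the transcript and often favour skipping. RBM is a name for proteins with RNA-binding motifs, and only some of them act in splicing.

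The study asked which transcripts follow GRIK1, a kainate-type glutamate receptor subunit. RNA was sequenced from 3 negative control libraries (NC, genotype given as wildtype) and 3 libraries labelled GRIK1 siRNA (genotype given as GRIK1 knockdown), all of U87-MG. The series' design text speaks of shRNA and the titles of siRNA. The study designed 3 siRNA types against GRIK1. It chose the one named siRNA1 for its later experiments, and which was used for sequencing is not given outright in the sources used here. The numbers 1 to 3 of the labelled libraries may therefore be replicates of one sequence or different sequences, and they were used here as replicates.

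GRIK1 itself was not lower in the libraries labelled GRIK1 siRNA. Its counts were 18, 9 and 8 in NC libraries 1 to 3 and 15, 20 and 20 in labelled libraries 1 to 3. Mean levels were 0.233 ± 0.131 FPKM (SD, n = 3) in NC and 0.34 ± 0.0436 FPKM (SD, n = 3) in the labelled libraries, a difference of 0.12 in log2(FPKM + 1). The exact permutation test, two-sided, gave p = 0.4, and 0.1 is the smallest p that 3 against 3 libraries allow. Counts of 8 to 20 per library are low, so these libraries measure GRIK1 with little precision. The study reported efficient knockdown of GRIK1 in U87-MG cells, measured apart from the sequencing. The groups are therefore named by their labels throughout. The glioma line markers VIM (825 to 1076 FPKM) and CD44 (50.8 to 71.6 FPKM) were high. FN1 lay between 11.6 and 93.3 FPKM and EGFR between 6.63 and 16.45 FPKM. OLIG2 lay between 0.41 and 0.83 FPKM, NES between 0.21 and 0.69 FPKM, and GFAP, SOX2 and S100B were at or below 0.28 FPKM. Of the blood and myelin markers, CD3E and MOG had 0 counts in every library, PTPRC 0 to 5, CD14 2 to 9 and MBP 2 to 18 counts. The endothelial markers PECAM1 and VWF had at most 5 counts and the liver marker ALB 1 to 10. The neuronal markers RBFOX3 and SYT1 had 11 to 71 counts, at most 0.33 and 0.84 FPKM. The epithelial markers EPCAM and CDH1 had 7 to 64 counts. EPCAM, at 0.91 to 2.09 FPKM, lay above OLIG2, and CDH1 was at most 0.13 FPKM. Total counts were 11099909 to 14006968 per library.

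NC library 3 stood apart from the other 5 libraries. Its correlation with them across genes was 0.952 to 0.968, against 0.980 to 0.992 among the others, and it lay alone at one end of the leading principal component, which held 59.6% of the variance. Ribosomal protein genes took 8.45% of its counts, against 4.35% to 4.99% elsewhere. The splicing factor and hnRNP genes took 1.44% of its counts, against 1.68% to 1.74% elsewhere. The results are therefore given with and without this library, whose part in them was not otherwise tested.

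With all 6 libraries, RBM15, an adaptor of the complex that writes N6-methyladenosine on RNA, was the 1 gene of 106 that passed the edgeR quasi-likelihood test at an adjusted p under 0.05, and it was higher in the labelled libraries. None passed as lower. Over all 15870 genes tested the same threshold called 3.09%. At an unadjusted p under 0.05 there were 22 of 106, 11 higher and 11 lower, beside 25.1% of all genes. In 40 of 106 genes the scaled values of the groups did not overlap, beside 38.5% of all genes. The median log2 fold change (labelled over NC) was -0.03, and -0.02 over all genes. In bulk RNA, a smaller share of cells that express a gene and less of its RNA per cell cannot be told apart.

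Without NC library 3, 43 of the 106 genes (40.6%) passed, 21 higher and 22 lower, beside 35.2% of all genes. The directions read 16.9% higher and 18.3% lower over all genes. The spread between libraries that the model estimated for all genes (the common dispersion, a squared coefficient of variation) was 0.0391 with NC library 3 and 0.00298 without it. In 24 of the 106 genes the fold change had opposite signs with and without that library, beside 2841 of all 15870 genes. DESeq2 on all 6 libraries called 11 of the 106, beside 10.6% of all genes. PRPF3, RBM10, RBM15 and SF3B3 were higher and RBM3, RBM47, RBMS3, RBMX, HNRNPA1, HNRNPF and SNRPN lower, and all 11 were among the 43.

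**Figure D1:**
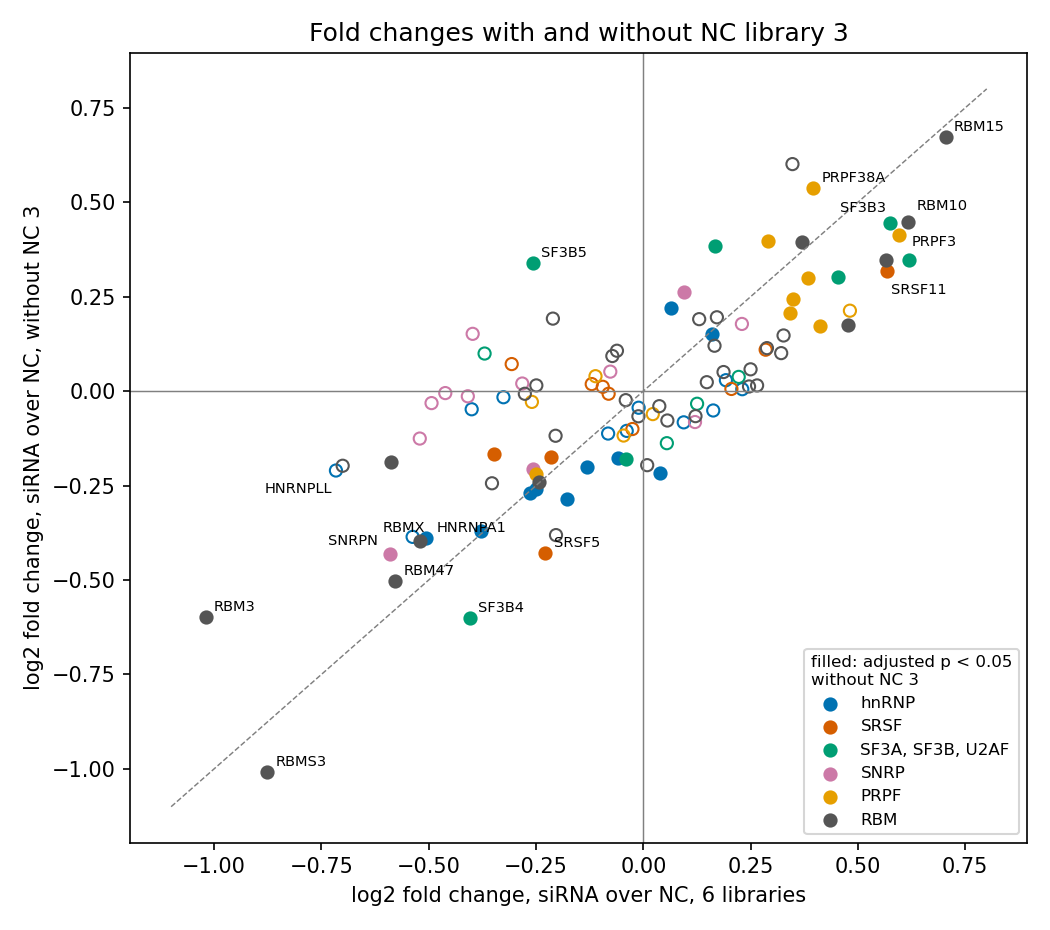
Log2 fold change of each of the 106 tested genes with all 6 libraries (horizontal axis) and without NC library 3 (vertical axis), coloured by name group, with filled points for an adjusted p under 0.05 without that library. Genes on the dashed line have equal values in both fits, and SF3B5 at the upper left moved from -0.26 to 0.34.

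The plot of both fits shows that the changes were small. RBMS3 was the 1 gene of the set that changed by over 2-fold and passed the test without NC library 3, and no gene did so with all 6 libraries. RBM15, PRPF38A, SF3B3 and PRPF3 lay at the top right in both fits, and RBM3, RBMS3 and RBM47 at the lower left.

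The DNA just before PRPF38A, RBM3 and SF3B4 is shown because these genes had some of the largest changes without NC library 3, in both directions, and a start in RefSeq (GRCh38.p14) near the start in the table. For RBM15, RBMS3 and RBM47 the RefSeq start lies inside the gene as the table gives it, and none is shown. Each stretch holds up to 120 bases before the RefSeq start without those inside the gene of the table, reads 5′ to 3′ on the strand of the gene, and has capitals for a motif found by search on both strands.
PRPF38A, chr1:52404482-52404601, plus strand: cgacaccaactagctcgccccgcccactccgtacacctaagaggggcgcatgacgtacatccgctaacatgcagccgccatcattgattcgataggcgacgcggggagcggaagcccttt
RBM3, chrX:48574364-48574448, plus strand, capitals for a CCAAT box: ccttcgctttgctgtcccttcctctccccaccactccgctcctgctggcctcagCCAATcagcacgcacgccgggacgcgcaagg
SF3B4, chr1:149927804-149927923, minus strand, capitals for an ETS core (CCGGAAG): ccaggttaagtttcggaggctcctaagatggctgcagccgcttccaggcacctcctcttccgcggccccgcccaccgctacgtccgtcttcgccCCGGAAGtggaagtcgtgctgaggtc
RefSeq windows from 250 bases before to 50 bases after the start were matched for 93 of the 106 genes. The ETS core CCGGAAG was in 32.3% of these windows, against 19.8% of the windows of all tested genes and 10.7% of all 27305 RefSeq promoters. CCAAT was in 48.4% of them, against 36.8% and 35.7%. The GC box GGGGCGG was in 35.5%, against 50.6% and 30.7%, and TATAAA in 10.8%, against 5.83% and 11.95%. The motifs were searched on both strands and do not share a site with each other in the stretches printed. In the full windows PRPF38A, a higher gene, held a CCAAT box and a GC box. Of the lower genes, RBM3 held a CCAAT box and an ETS core, and SF3B4 an ETS core. PRPF38A and RBM3 thus shared a motif though they moved in opposite directions, and a match is a description of the sequence only.

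The hnRNP genes were mostly lower without NC library 3. Of 21 tested, 8 fell and 2 rose, beside the 18.3% and 16.9% given above for all genes, and 11 did not pass. Their median log2 fold change was -0.11, and -0.08 with all 6 libraries, where none passed. There, 4 of 21 had an unadjusted p under 0.05, all lower. Over all 15870 genes 25.1% had such a p, with 1897 higher and 2090 lower. DESeq2 called HNRNPA1 and HNRNPF lower on all 6 libraries.

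HNRNPA1 (chr12:54280193-54287088), which often represses the use of a splice site, stood at 143, 149.8 and 162 FPKM in NC libraries 1 to 3 and at 111, 115 and 115 FPKM in the labelled libraries. Every NC library was above every labelled library. The log2 fold change was -0.51 (SE 0.15, adjusted p = 0.102 by edgeR) and -0.39 (SE 0.05, adjusted p = 7.09e-06) without NC library 3. HNRNPF, which binds runs of G, had 89.8, 90.2 and 80.8 FPKM in NC and 72.7, 69.8 and 70.2 FPKM in the labelled libraries. It fell by 0.37 on the log2 scale without NC library 3 (SE 0.04, adjusted p = 4.7e-06), and its value with all 6 libraries was -0.38 (adjusted p = 0.0982). For these genes the direction was the same with or without NC library 3.

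HNRNPDL, HNRNPA0, HNRNPL, HNRNPA3, HNRNPD and HNRNPUL1 also fell without NC library 3, by 0.27, 0.26, 0.28, 0.20, 0.22 and 0.18 on the log2 scale. Their values were -0.26, -0.25, -0.18, -0.13, 0.04 and -0.06 with all 6 libraries. HNRNPR and HNRNPM rose by 0.22 and 0.15 without NC library 3, and had 0.06 and 0.16 with it. HNRNPD was the 1 of these that turned sign, and its level in NC library 3 was 18.7 FPKM against 41.4 and 42.0 FPKM in the other NC libraries. HNRNPK, a poly(C)-binding protein and among the highest of the group, lay at 112 to 138 FPKM in NC and 128 to 129.9 FPKM in the labelled libraries, with log2 fold changes of -0.08 and, without NC library 3, -0.11 (adjusted p = 0.0671). It shares its locus with the antisense gene HNRNPK-AS1, and the strand setting of the counting is not given in the sources used here.

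HNRNPLL, known for alternative splicing of CD45 in lymphocytes, had the lowest value of the group with all 6 libraries, -0.72 (SE 0.32, adjusted p = 0.207). NC library 3 decided that value. The levels were 5.98 and 5.53 FPKM in NC libraries 1 and 2, 11.4 FPKM in NC library 3, and 5.10, 5.12 and 4.98 FPKM in the labelled libraries. Without NC library 3 the log2 fold change was -0.21 (SE 0.09, adjusted p = 0.0692). The reverse held for HNRNPUL2, the highest of the group at 0.23 with all 6 libraries, whose NC library 3 was at 7.46 FPKM against 14.8 and 15.2 FPKM. Without that library the value was 0.01.

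Among the 11 tested SR protein genes, 3 fell and 1 rose without NC library 3, 36.4% beside the 35.2% of all genes. None passed with all 6 libraries, where none had an unadjusted p under 0.05, beside 25.1% of all genes. SRSF11, an SR-related factor, stood at 83.4, 79.9 and 37.5 FPKM in NC and at 101, 105 and 105 FPKM in the labelled libraries. Each labelled library was above each NC library. The log2 fold change was 0.57 (SE 0.25, adjusted p = 0.207) and 0.32 (SE 0.05, adjusted p = 5.37e-05) without NC library 3. SRSF5 moved the other way, from 139, 146 and 76.4 FPKM in NC to 104, 111 and 108 FPKM. The labelled libraries lay between NC library 3 and the other NC libraries, so the value was -0.23 (SE 0.21, adjusted p = 0.509) with all 6 and -0.43 (SE 0.05, adjusted p = 2.93e-06) without NC library 3.

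SRSF7 and SRSF9 were the other SR genes that fell without NC library 3, both by 0.17 on the log2 scale. In the fit of all 6, SRSF9 had -0.22 and SRSF7 the lowest value of the group, -0.35. The remaining 7, among them the founding members SRSF1 and SRSF2, did not pass in either fit. SRSF6 was at 77.4, 81.5 and 45.8 FPKM in NC and at 84.5 to 88.7 FPKM in the labelled libraries, with values of 0.29 and, without NC library 3, 0.11 (adjusted p = 0.0932). SRSF2 lay at 54.3 to 59.4 FPKM in the labelled libraries and at 59.4, 61.6 and 45.1 FPKM in NC. Its relative SRSF8 was far lower, at 3.03 to 4.16 FPKM over the 6 libraries. Reads that fit both genes could be split between them or go uncounted.

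Of the 11 tested U2 particle and U2AF genes, 7 passed without NC library 3, 63.6% beside 35.2% of all genes. Of the 7, 5 rose (SF3A2, SF3A3, SF3B2, SF3B3 and SF3B5) and 2 fell (SF3B1 and SF3B4), beside 16.9% and 18.3% of all genes. With all 6 libraries none passed, and SF3A2, SF3B2 and SF3B3 had an unadjusted p under 0.05, beside 25.1% of all genes. SF3A3 had 0.17 there and SF3B2 0.45. SF3B3 stood at 9.12, 8.31 and 5.69 FPKM in NC and at 12.1, 12.4 and 11.8 FPKM in the labelled libraries. The fold change was 0.58 on the log2 scale (SE 0.15, adjusted p = 0.0783) and 0.45 (SE 0.06, adjusted p = 6.73e-06) without NC library 3. SF3A2 had 33.1, 29.8 and 13.4 FPKM in NC and 42.4, 39.6 and 40.1 FPKM in the labelled libraries, with values of 0.62 (adjusted p = 0.197) and 0.35 (adjusted p = 0.000219). The groups did not overlap in either gene. SF3A2 overlaps PLEKHJ1 on the opposite strand.

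SF3B4, whose promoter stretch is given above, went against most of the group. It stood at 39.0 and 38.5 FPKM in NC libraries 1 and 2, at 21.0 FPKM in NC library 3 and at 27.8, 27.0 and 23.2 FPKM in the labelled libraries. The groups thus overlapped through NC library 3 alone. The log2 fold change was -0.40 (SE 0.20, adjusted p = 0.255), and -0.60 (SE 0.08, adjusted p = 1.19e-05) without that library. SF3B1, the branch-point subunit that is often mutated in leukaemia, was at 99.9, 98.4 and 63.3 FPKM in NC and at 87.7, 91.0 and 88.8 FPKM in the labelled libraries. It fell by 0.18 on the log2 scale without NC library 3, and its value was -0.04 with all 6.

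The small SF3B subunits SF3B5 and SF3B6 were highest in NC library 3. SF3B5 was at 119 and 131 FPKM in NC libraries 1 and 2, at 279 FPKM in NC library 3 and at 177, 152 and 154 FPKM in the labelled libraries. Its log2 fold change was -0.26 (SE 0.36, adjusted p = 0.672) with all 6 libraries and 0.34 (SE 0.07, adjusted p = 0.00111) without NC library 3, so that the direction depended on 1 library. SF3B6 had the same shape, with 58.8, 69.1 and 121 FPKM in NC and 59.5, 79.1 and 70.5 FPKM in the labelled libraries, and did not pass in either fit.

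U2AF2, the subunit that binds the polypyrimidine tract, did not pass in either fit, with values of 0.22 and, without NC library 3, 0.04. U2AF1, the subunit that reads the AG of the splice site, was listed with only 36 to 97 counts in NC and 35 to 77 in the labelled libraries and was not tested. A gene given in the table without a symbol (U2AF1L5 in GENCODE 29, a near-identical copy at chr21:6484623-6499248) held 135, 83 and 43 counts in NC and 120, 128 and 133 in the labelled libraries. Reads that fit both copies can be split between them or go uncounted, so neither is a measure of U2AF1. U2AF1L4 lay at 1.44 to 2.65 FPKM over the 6 libraries and did not pass.

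**Figure D2:**
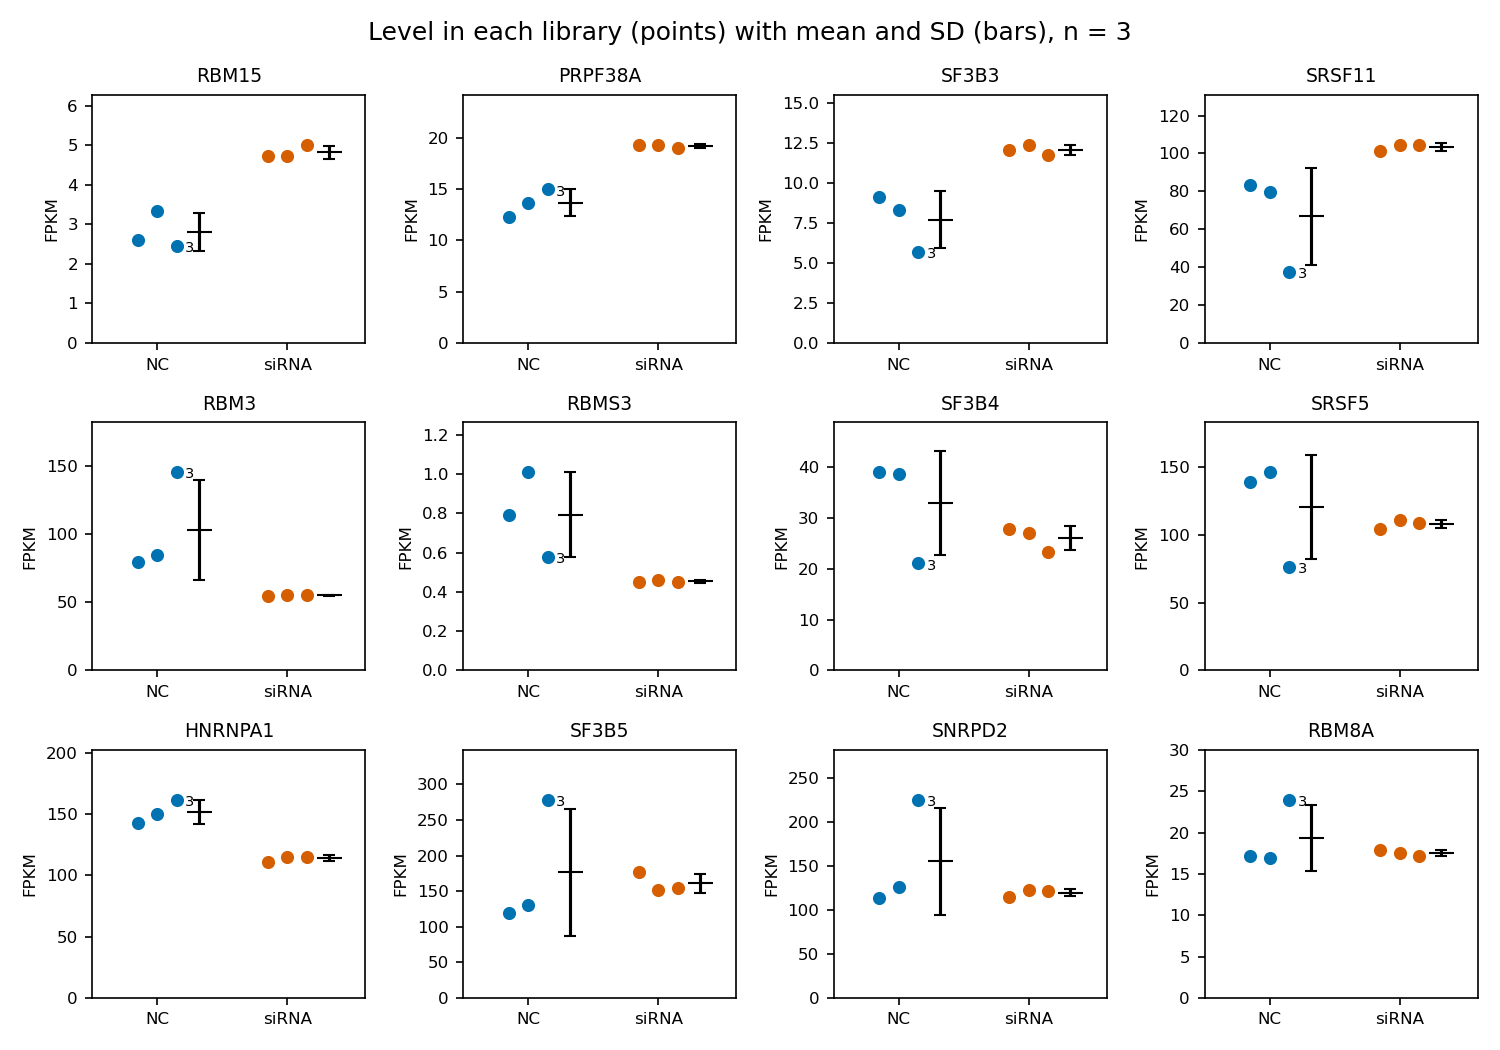
FPKM of 12 of the genes in each library (points, NC in blue with library 3 numbered, labelled siRNA libraries in orange), with the group mean and SD as a bar (n = 3). RBM15, PRPF38A, SF3B3 and SRSF11 were higher and RBM3, RBMS3 and HNRNPA1 lower in each labelled library than in each NC library, while SF3B5, SNRPD2 and RBM8A were high in NC library 3 alone.

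In the plot of FPKM by library the 3 labelled libraries lay close together, and the wide bars in NC come mostly from its library 3. It was the lowest NC library for SF3B4 and SRSF5 and the highest for RBM3 and SNRPD2. For RBM15, NC library 2 lay apart instead, and for RBMS3 all 3 NC libraries were spread.

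Of the 12 tested SNRP genes, SNRPN and SNRPB fell, SNRPC rose and 9 did not pass once NC library 3 was left out, so that 25.0% passed beside 35.2% of all genes. With all 6 libraries the median log2 fold change was -0.34, the lowest of the name groups, and without NC library 3 it was -0.01. SNRPN, the imprinted Sm protein gene of brain, was at 7.98, 7.54 and 9.22 FPKM in NC and at 6.21, 6.07 and 5.33 FPKM in the labelled libraries, with no overlap. The fold change was -0.59 on the log2 scale (SE 0.16, adjusted p = 0.0908) and -0.43 (SE 0.10, adjusted p = 0.00325) without NC library 3. SNRPN shares its strand and locus with SNURF and SNHG14. SNRPC, a U1 protein, was at 41.6, 36.8 and 47.3 FPKM in NC and at 51.9, 47.5 and 44.3 FPKM, and rose by 0.26 on the log2 scale without NC library 3 (SE 0.08, adjusted p = 0.016). When NC library 3 was kept, SNRPC had 0.09 (adjusted p = 0.736) and SNRPB -0.26.

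The proteins of the Sm ring (SNRPB, SNRPD1, SNRPD2, SNRPD3, SNRPE, SNRPF and SNRPG), a grouping chosen after their values were seen, were each higher in NC library 3 than in the other 5 libraries on the scaled values. Over all genes, 5641 of 15870 were above the other 5 libraries in NC library 3. SNRPD2, the highest of the SNRP genes, was at 225 FPKM there, at 114 and 126 FPKM in the other NC libraries and at 115, 123 and 122 FPKM in the labelled libraries. On the log2 scale the difference was -0.49 (SE 0.30, adjusted p = 0.328), and -0.03 (adjusted p = 0.707) without NC library 3. SNRPE, at 30.6 FPKM in NC library 3, lay between 14.3 and 16.9 FPKM elsewhere. Against the mean of the other NC libraries the 7 genes had a median log2 ratio of 0.95, beside -0.03 over all genes. SNRPA1, a U2 protein with the highest value of the SNRP genes at 0.23 with all 6 libraries, did not pass in either fit.

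PRPF genes were mostly higher. Without NC library 3, 7 of 13 rose (PRPF3, PRPF38A, PRPF4, PRPF39, PRPF6, PRPF38B and PRPF8), PRPF4B fell and 5 did not pass, beside 16.9% higher and 18.3% lower over all genes. Their median log2 fold change was 0.21 without NC library 3 and 0.34 with it, the highest of the name groups in both fits. With all 6 libraries none passed, while 4 of 13 were higher and 1 lower at an unadjusted p under 0.05. Over all 15870 genes 1897 were higher and 2090 lower at that threshold. In 7 of 13 the labelled libraries were all above the NC libraries, beside 19.4% of all genes.

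PRPF38A (chr1:52404602-52420836), which acts in the activation of the spliceosome, was at 12.3, 13.7 and 15.0 FPKM in NC and at 19.3, 19.2 and 19.0 FPKM in the labelled libraries. No labelled library came within the NC range. Its log2 fold change was 0.40 (SE 0.14, adjusted p = 0.149) and 0.54 (SE 0.06, adjusted p = 3.03e-06) without NC library 3. TUT4 overlaps it on the opposite strand. PRPF3, a U4/U6 protein, was at 16.7, 16.6 and 9.39 FPKM in NC and at 21.4, 23.1 and 23.1 FPKM, with values of 0.60 (SE 0.18, adjusted p = 0.115) and 0.41 (SE 0.06, adjusted p = 2.37e-05). Its partner PRPF4 was at 8.61, 8.87 and 9.47 FPKM in NC and at 12.01, 11.8 and 11.3 FPKM. It rose by 0.40 on the log2 scale without NC library 3 (adjusted p = 0.000494), and its value with all 6 libraries was 0.29.

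PRPF6, a bridging protein of the tri-snRNP, was the highest of the group at 33.5, 31.2 and 22.4 FPKM in NC and 39.3, 39.0 and 38.6 FPKM in the labelled libraries. It rose by 0.24 on the log2 scale without NC library 3 (SE 0.05, adjusted p = 0.002), and PRPF38B by 0.21 (SE 0.05, adjusted p = 0.00247). PRPF8, the central U5 protein, rose by 0.17 there. The values with all 6 libraries were 0.35 for PRPF6 (adjusted p = 0.164), 0.34 for PRPF38B (adjusted p = 0.212), 0.41 for PRPF8 (adjusted p = 0.314), 0.38 for PRPF39 and -0.25 for PRPF4B.

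The RBM genes moved in both directions. Of 38 tested, 5 rose (RBM15, RBM10, RBM12B, RBM33 and RBM6) and 6 fell (RBMS3, RBM3, RBM47, RBMX, RBM12 and RBM18) without NC library 3, and 27 did not pass, so that a lower share passed than over all genes (28.9% beside 35.2%). RBM15 (chr1:110338506-110346681) was at 2.60, 3.35 and 2.45 FPKM in NC and at 4.74, 4.73 and 5.02 FPKM in the labelled libraries. The counts behind these values were 135 to 174 in NC and 274 to 310 in the labelled libraries. Its log2 fold change was 0.70 (SE 0.15, adjusted p = 0.0497 by edgeR) and 0.67 (SE 0.12, adjusted p = 0.000311) without NC library 3. When NC library 1, NC library 2 or any labelled library was left out instead, the adjusted p was 0.0984 to 0.252. In each of those fits 0 of all 15870 genes passed.

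RBM3 (chrX:48574449-48581162), a protein induced by mild cold, was at 79.4, 84.2 and 145 FPKM in NC and at 54.4, 55.2 and 55.4 FPKM in the labelled libraries. The groups lay well apart, and NC library 3 was the highest of all. The log2 fold change was -1.02 (SE 0.28, adjusted p = 0.0915 by edgeR, 0.0107 by DESeq2) and -0.60 (SE 0.05, adjusted p = 4.36e-08) without NC library 3. CIRBP, the other well-known cold-inducible RNA-binding protein gene, named after its values were seen, was at 32.0, 31.7 and 19.1 FPKM in NC and at 29.0, 28.6 and 27.6 FPKM, with values of -0.03 and, without NC library 3, -0.19 (adjusted p = 0.00383).

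RBMS3, which binds single-stranded nucleic acid, was low at 0.79, 1.01 and 0.58 FPKM in NC and 0.45, 0.46 and 0.45 FPKM in the labelled libraries. Its counts were 151 to 208 and 103 to 110. The log2 fold change was -0.88 (SE 0.19, adjusted p = 0.0536) and -1.01 (SE 0.14, adjusted p = 2.18e-05) without NC library 3, in each fit with no overlap of the groups. RBM47, which binds introns and 3′ ends of mRNA, was at 2.36, 2.06 and 2.25 FPKM in NC and at 1.34, 1.58 and 1.83 FPKM, with values of -0.58 (SE 0.17, adjusted p = 0.0985) and -0.50 (SE 0.13, adjusted p = 0.00603).

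RBMX, the hnRNP G gene, was at 30.5, 30.5 and 34.1 FPKM in NC and at 22.8, 23.3 and 24.7 FPKM in the labelled libraries. It fell by 0.40 on the log2 scale without NC library 3 (SE 0.05, adjusted p = 1.18e-05), and its value with all 6 libraries was -0.52 (adjusted p = 0.0814). RBMXL1, its retrocopy, was at 1.77, 1.98 and 3.23 FPKM in NC and at 2.08, 2.26 and 2.20 FPKM and did not pass. It lies in the locus of KYAT3 on the same strand, so its reads may be shared. RBM10, which promotes skipping of exons, was at 13.6, 14.3 and 8.17 FPKM in NC and at 20.9, 18.3 and 19.0 FPKM, with values of 0.62 (SE 0.18, adjusted p = 0.102) and 0.45 (SE 0.07, adjusted p = 0.000136).

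RBM8A, the exon junction complex protein Y14, did not change in a way that passed either fit. It was at 17.1, 16.9 and 24.0 FPKM in NC and at 17.9, 17.6 and 17.1 FPKM in the labelled libraries. The log2 fold change was -0.25 (SE 0.20, adjusted p = 0.446), and 0.02 (SE 0.06, adjusted p = 0.868) without NC library 3. RBM39, a U2AF-related factor, was the second most abundant RBM gene at 43.1, 43.4 and 28.6 FPKM in NC and 44.3, 45.6 and 44.4 FPKM and passed in neither fit. RBM4 and RBM4B, neighbours that overlap on opposite strands, also passed in neither. RBM12B rose by 0.40 on the log2 scale and RBM12 fell by 0.24 without NC library 3, and with all 6 libraries they had 0.37 (adjusted p = 0.132) and -0.24 (adjusted p = 0.197). RBM33, RBM6 and RBM18 had 0.56, 0.48 and -0.59 with all 6 and did not pass there. RBM12 shares its strand and locus with CPNE1, a gene at a mean of 43.7 FPKM.

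**Figure D3:**
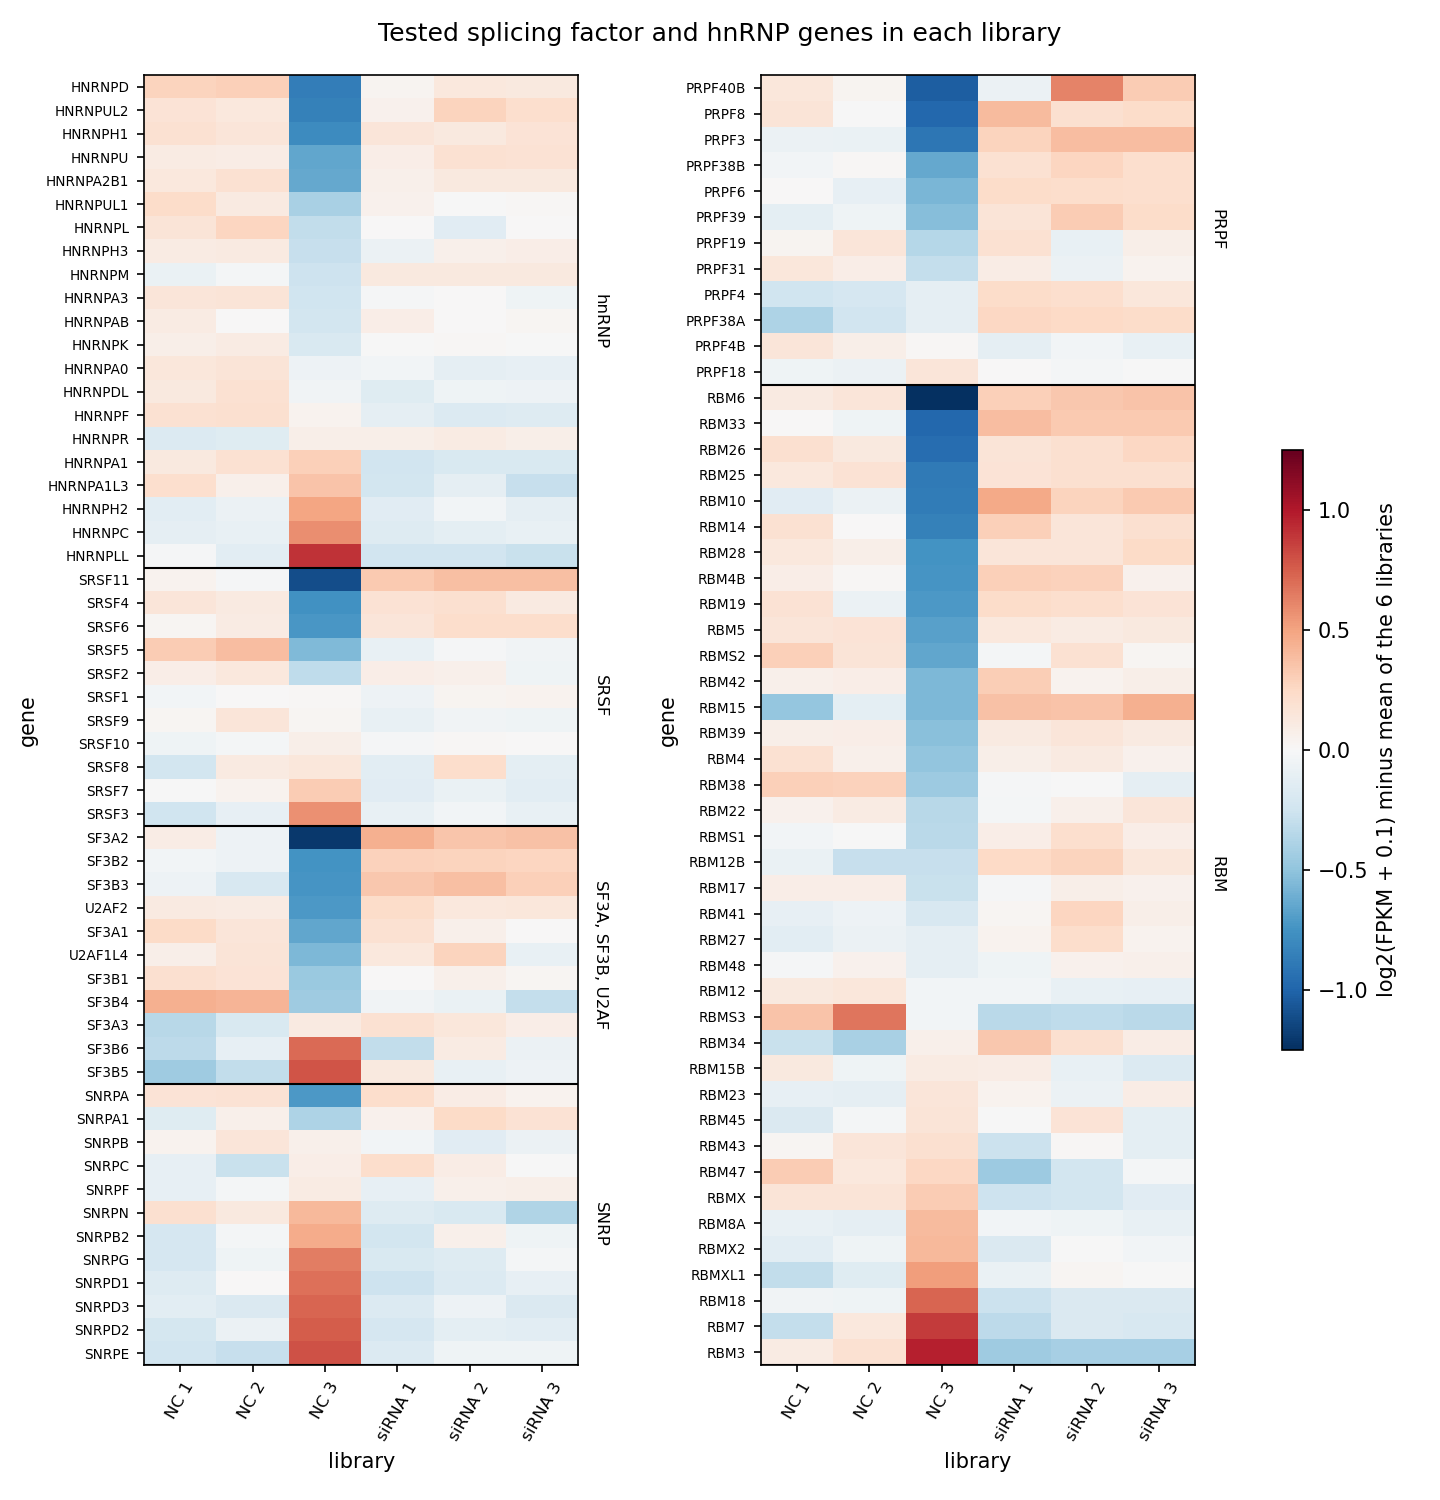
Level of 105 of the tested genes (lines of the heat map, grouped by name and ordered by NC library 3) in each library, as log2(FPKM + 0.1) minus the mean of the 6 libraries. The column of NC library 3 holds the darkest blue and red, with the SNRP genes mostly red, and the 3 labelled libraries resemble each other.

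The heat map shows NC library 3 as the column that differs most. On scaled counts it lay outside the range of the other 5 libraries for 90 of the 106 genes, above it for 42 and below it for 48. Over all 15870 genes it did so for 11328, above the range for 5641 and below it for 5687. Its log2 ratio to the mean of NC libraries 1 and 2 had a median of -0.10 over the 106 genes and ran from -1.204 (RBM6) to 1.33 (SF3B5). The SNRP genes had a median of 0.60, with 10 of 12 above 0, and the SF3A, SF3B and U2AF genes a median of -0.49, with 3 of 11 above 0. Over all 15870 genes the median was -0.03, with 7562 above 0.

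**Figure D4:**
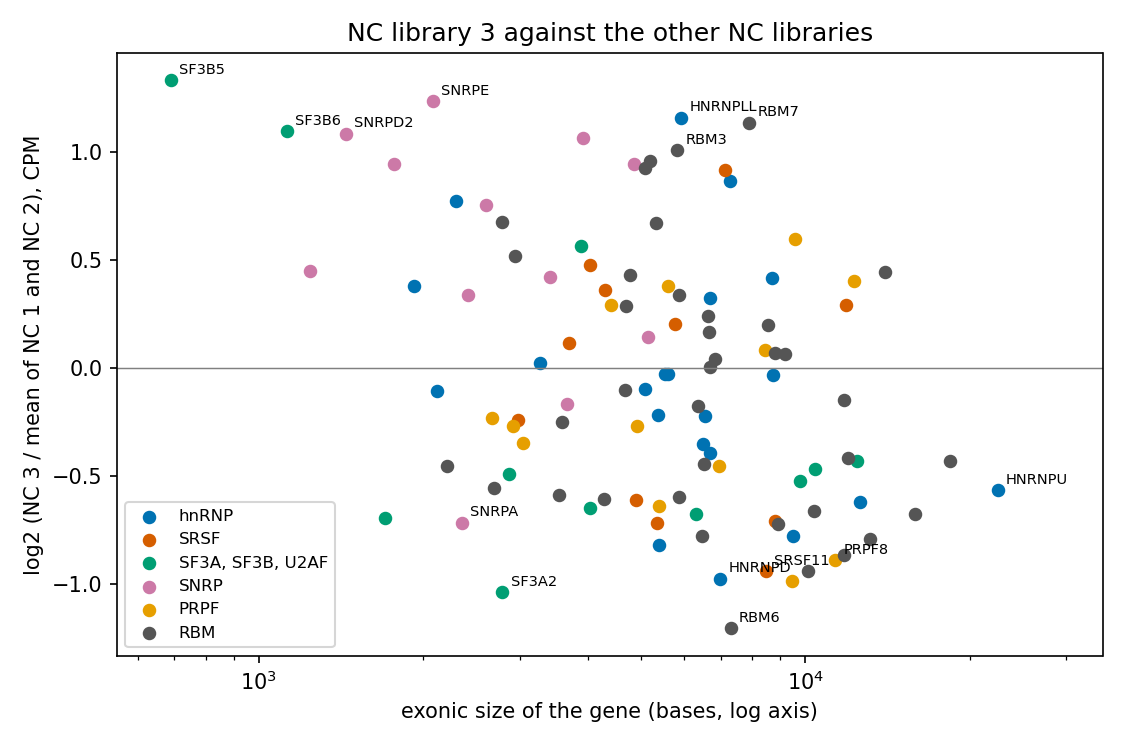
Log2 ratio of NC library 3 to the mean of NC libraries 1 and 2, in scaled counts, against the exonic size of each of the 106 genes in bases on a log axis, coloured by name group. SF3B5, SF3B6 and most SNRP genes lie at the upper left, and long genes such as HNRNPU lie below 0.

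Within the set, short genes tended to be higher in NC library 3 and long genes lower, as the plot against exonic size shows. The 13 genes with an exonic size under 2500 bases had a median log2 ratio of 0.45, the 64 genes from 2500 bases to below 8000 bases a median of -0.03, and the 29 genes of 8000 bases or more a median of -0.46. Across the 106 genes the ratio and the log2 size had a Pearson r of -0.37 and a Spearman rho of -0.33. The points share the same 3 libraries and genes are not independent, so this is a description. Across all 15870 genes r was 0.01. With a trend on size removed in each library, 1 of the 106 genes was called, RBMS3 (-1.08, adjusted p = 0.032 by edgeR), beside 2.38% of all genes. Before that step RBMS3 was not called (adjusted p = 0.0536 by edgeR). RBM15 had 0.73 with the trend removed, a fold change no smaller than before, with an adjusted p of 0.0508.

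Splicing genes outside these names, a list of 159 genes ordered by role, were read beside them. Of 148 tested, 1 passed with all 6 libraries and 70 without NC library 3, 34 higher and 36 lower. That is 47.3% beside 35.2% of all genes, of which 16.9% were higher and 18.3% lower. The 1 gene was DDX39A, a helicase of mRNA export, at 19.5, 18.8 and 11.4 FPKM in NC and at 33.6, 30.8 and 30.02 FPKM in the labelled libraries. Its log2 fold change was 0.86 (SE 0.17, adjusted p = 0.0473) and 0.69 (SE 0.06, adjusted p = 1.85e-07) without NC library 3. By role, 12 of 37 genes of the PRP19 complex, activation and catalysis rose and 2 fell without NC library 3. Of 44 splicing regulators outside the hnRNP names 8 rose and 18 fell, and of 29 further snRNP proteins 3 rose and 10 fell. Of 28 exon junction complex and SR-related proteins, the role that holds DDX39A, 9 rose and 5 fell, and of 10 LSM proteins 2 rose and 1 fell. The LSM proteins, relatives of the Sm ring, were all 10 above the other 5 libraries in NC library 3, beside 5641 of all 15870 genes. Their median log2 ratio to NC libraries 1 and 2 was 0.73, beside -0.03 over all genes.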

How the data were processed

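Total RNA of U87-MG cells was sequenced in 3 NC libraries and 3 libraries labelled GRIK1 siRNA, grouped by their labels. The authors deposited whole-number read counts per gene, not normalized, and FPKM values that they computed from these counts, the total of the library and the exonic size. This formula gave 100% of the FPKM values within 0.005. The submitters' processing notes list cutadapt 1.9.1, HISAT2, HTSeq and GRCh38. The strand setting is not given in the sources used here. 0 columns of values were left unassigned and 0 entries name no gene.

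The counts were scaled by TMM (factor 0.891 for NC library 3, 1.01 to 1.03 for the others) and fitted by quasi-likelihood in edgeR 4.0.16 (R 4.3.3), with Benjamini-Hochberg adjustment over the 15870 genes with a mean FPKM of at least 0.5, and no covariate. DESeq2 1.42.0, limma 3.58.1 (voom and limma-trend), other scalings and filters, a replicate block, a trend on exonic size and leaving out each library were alternatives. Overlap of groups and ratios of NC library 3 were read on TMM-scaled counts (CPM). Means are given ± SD. The SE of an edgeR fold change was its absolute log2 value divided by the square root of the test's F statistic. The fits were tested on simulated data.

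The members and lists were chosen with earlier results of these data known. Named genes were those called, the 2 most abundant and the most raised and lowered of each name group, those called and changed by over 0.5 (log2) without NC library 3, RBM8A, members with a near-identical copy, and the other splicing genes called. HNRNPF, HNRNPDL, HNRNPA0, HNRNPL, HNRNPA3, HNRNPD, HNRNPUL1, HNRNPR, HNRNPM, SRSF1, SRSF6, SRSF9, SF3A3, SF3B2, SF3B3, SF3B6, U2AF2, SNRPB, SNRPE, PRPF4, PRPF4B, PRPF8, PRPF39, RBM6, RBM10, RBM18, RBM33 and CIRBP were named after their values were seen. Nothing in the labels says that libraries came from separate cultures, so p-values measure the spread between libraries, which may be technical. Each pair of libraries differed by more than counting noise (mean chi-square of at least 2.36 per gene). Labelled library 1 differed more from labelled libraries 2 and 3 (6.67 and 10.1) than these did from each other (2.71). A count of 0 allows up to 3 counts, a limit that covers counting error only. The values of 1 gene that the naming rule selected are not reported here.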

Additional observations from a re-analysis of the deposited data

How the results depend on the processing

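Among the 106 genes 1 was called. The number was 3 with no filter, 2 with filterByExpr, 11 with DESeq2, 40 with voom and quality weights, 0 with limma-trend on log2(FPKM + 1) or log2(FPKM + 0.1), 0 with robust fitting and 0 with a replicate block. Over all genes tested under the same settings the share called was 3.09%, and 4.12% with no filter, 3.91% with filterByExpr, 10.6% with DESeq2, 39.9% with voom, 2.56% and 1.76% with limma-trend, 2.60% with robust fitting and 0 genes with the block. Leaving out 1 library gave 0 to 43, with 43 without NC library 3 (beside 35.2% of all genes) and 0 for each of the other 5. In each of those 5 fits 0 of all 15870 genes were called. Added after the data were seen, DESeq2 without NC library 3 called 37 and the size trend removed without NC library 3 called 44, beside 26.5% and 35.5% of all genes. Among the other splicing genes 1 was called, against 0 with upper quartile scaling or total counts, 3 with no filter, 9 with DESeq2, 65 with voom, 0 with limma-trend, robust fitting or the block, 0 to 70 when 1 library was left out, and 55 and 63 with the added settings. The median log2 fold change of the 106 genes, -0.03, was 0.052 with total counts and 0.063 and 0.064 with limma-trend at pseudocounts of 1 and 0.1, where the median of all genes was 0.071, 0.062 and 0.089. It was -0.03 to 0.01 when 1 library was left out. The cause was not tested. Deviations from the group mean correlated at -0.07, 0.04 and -0.04 between libraries with the same number, and at -0.06 to 0.08 between libraries with different numbers. With 3 libraries in a group and NC library 3 far from the other NC libraries, this check cannot tell whether libraries were paired.

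Of 755 values of 36 named genes under 21 alternatives, 37 changed direction. With total counts, limma-trend with a pseudocount of 1 and limma-trend with 0.1, HNRNPK was 0.0020, 0.0061 and 0.0061, SF3B1 0.034, 0.061 and 0.062, and SRSF2 0.055, 0.064 and 0.065. With voom and quality weights RBM4 was -0.054, RBMXL1 0.17, SF3B5 0.26 and U2AF1L4 -0.069. With DESeq2 without NC library 3 and with the size trend removed without it, RBM4 was -0.076 and -0.078, RBM8A 0.017 and 0.038, RBMXL1 0.19 and 0.22, SF3B5 0.34 and 0.21, and SRSF8 0.021 and 0.065. U2AF1L4 was -0.031 with DESeq2 without NC library 3, RBM39 -0.065 with the size trend removed without it, and SRSF2 0.025 with the size trend removed from all 6 libraries. Leaving out 1 library gave ranges of -0.078 to 0.16 for RBM4, -0.37 to 0.015 for RBM8A, -0.40 to 0.19 for RBMXL1, -0.50 to 0.34 for SF3B5, -0.26 to 0.019 for SRSF8 and -0.033 to 0.24 for U2AF1L4, where NC library 3 alone turned the sign. The ranges were -0.18 to 0.038 for SF3B1 (turned by NC library 1 or 2), -0.10 to 0.033 for SRSF2 (by NC library 2 or labelled library 3) and -0.016 to 0.26 for SNRPC (by NC library 2). A further 21 values, all of DDX39A or RBM15, kept their direction and were no longer called, and 85 were newly called.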

Other observations

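The pseudogenes that the naming rule left out were also read from the table. There were 227 of them, 88 with a count in some library and 24 with a mean of at least 0.5 FPKM. Together they held 689 to 775 counts in the labelled libraries and 707, 697 and 961 counts in NC libraries 1 to 3. Of the 74 HNRNPA1 pseudogenes 32 had a count, with 260 to 382 counts per library in all. HNRNPA1P7 fell by 0.41 on the log2 scale without NC library 3 (edgeR adjusted p = 0.0157), beside -0.39 for HNRNPA1 itself, and had -0.58 (adjusted p = 0.109) with all 6. HNRNPA1P16 moved the other way and rose by 1.09 (edgeR adjusted p = 0.0122), on 7 to 20 counts in NC and 32 to 49 in the labelled libraries, with 1.44 (adjusted p = 0.0967) when NC library 3 was kept. Reads that fit HNRNPA1 and a copy could be split between them or go uncounted. These 2 pseudogenes were named after their values were seen. They were the only 2 of the 24 that passed without NC library 3, beside 35.2% of all genes. HNRNPA1L2, a member, had 0 counts in every library. HNRNPA1L3, also a member, had 63 to 98 counts in NC and 57 to 63 in the labelled libraries. Its log2 fold change was -0.54 (edgeR adjusted p = 0.153), and -0.39 (adjusted p = 0.123) without NC library 3. HNRNPA1L3 was named after its values were seen.

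Some members are known for use in other tissues and were listed at or near 0 in these cells. HNRNPCL1 had 1 count in all 6 libraries together, HNRNPCL2 to HNRNPCL4 had none, and RBM20, a splicing factor of heart muscle, and RBM24, of muscle, had at most 1 and 6 counts in a library. RBM46 and RBM11 had 0 counts in every library, and SRSF12 had 2 to 4 counts in NC and 8 to 22 in the labelled libraries. These genes were named after their values were seen.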
